A study of Mus musculus with 19 samples.

Results

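Loss of Xbp1 in type 1 conventional dendritic cells (cDC1) was examined by comparing 3 Xbp1 KO with 3 wild type (WT) bulk RNA-seq libraries, 6 of the 19 libraries in the series. All cells were cDC1s sorted from the spleen of C57BL6 mice, with 5000 to 50000 cells per library collected in lysis buffer for total RNA. The knockout group carried the genotype label Xbp1 KO, and the WT group held libraries under 2 descriptions: replicates 1 and 2 were named for floxed alleles of both Xbp1 and Ire1 (fl-fl), and replicate 3 was named WT. The labels used here give neither the Cre driver nor the deleted exons, and they give no age, sex, sort date or sequencing batch. Nothing in them ties a replicate to a separate animal, so the p-values describe the spread among these samples, part of which may be technical. The 3 cDC1 libraries of the genotype labelled Xbp1-Ire1 KO were fitted together with the 6, and cDC2 libraries (4 WT, 3 Xbp1 KO) served for a test of whether the effect differed between the cell types.

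cDC1 are the dendritic cells that take up dying cells and present their antigens to CD8 T cells. The unfolded protein response monitors folding in the endoplasmic reticulum (ER) through the sensors IRE1, PERK and ATF6. IRE1, encoded by Ern1, cuts Xbp1 mRNA at a pair of stem-loops, and the religated mRNA encodes the transcription factor XBP1s, which drives genes of ER folding, translocation, glycosylation and transport. When XBP1s is missing, the IRE1 RNase is known to become overactive in several secretory and immune cells and to cleave other ER-bound mRNAs, a process called regulated IRE1-dependent decay. A separate arm, the integrated stress response, acts through phosphorylation of eIF2alpha and the factors ATF4 and CHOP, and raises genes of amino acid supply.

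Library totals were 12757313 to 13727184 counts in WT, 10976556 to 12241128 in Xbp1 KO, with 11268349 to 16209469 in the double knockout. Before scaling, Xcr1, the chemokine receptor that defines cDC1, spanned 813 to 1281 counts per 1000000 counts (CPM) over the 9 cDC1 libraries. Its values were 813, 978 and 1010 CPM in WT and 1223, 1225 and 1281 in Xbp1 KO. Over the 10 cDC2 libraries it spanned 5.66 to 19.5 CPM. Irf8, the lineage-defining transcription factor of cDC1, lay at 3574 to 4934 CPM in the cDC1 libraries, with 3574 to 4041 in WT and 4183 to 4577 in Xbp1 KO. Its level was 118 to 211 CPM in cDC2. On this unscaled measure WT and Xbp1 KO did not overlap for Xcr1 and Irf8, nor for Cd8a and Cadm1. Cd8a was at 913, 917 and 694 CPM in WT and 612, 534 and 593 in Xbp1 KO. Cadm1 was at 777, 772 and 914 CPM in WT and 1130, 1081 and 967 in Xbp1 KO. The groups overlapped for Clec9a (211 to 272 CPM in WT, 268 to 322 in Xbp1 KO) and Batf3 (62.6 to 79.6 and 70.4 to 78.9). Batf3 was at 37.9 to 54.0 CPM in cDC2. Tlr3 and Naaa are described below. In Xbp1 KO replicate 3, 21 transcripts of pancreatic acinar cells summed to 2409.6 unscaled CPM, against 2.12 to 11.5 CPM in the other 8 cDC1 libraries. In Xbp1 KO replicate 2, 12 markers of red pulp macrophages summed to 1066 CPM, against 489 and 194 CPM in the other Xbp1 KO libraries. The sums were 261 to 420 CPM in WT and 223 to 892 CPM in the double knockout, and 0 of the 12 were called. Among the 10 tested B and plasma cell, 6 T and NK cell, 8 cDC2 and 10 monocyte and neutrophil markers, 0 were called as well. However, 13 monocyte and neutrophil markers summed to 215 to 348 unscaled CPM in WT and 406 to 544 in Xbp1 KO, without overlap. In the double knockout they summed to 409 to 548 CPM. For the B and plasma cell, T and NK cell and cDC2 sums, WT and Xbp1 KO overlapped. Without WT replicate 3 or Xbp1 KO replicate 2 up to 2 markers of each of these lists, and of the macrophage list, were called. Without Xbp1 KO replicate 3, 1 macrophage marker was called higher. The median log2 fold change (Xbp1 KO minus WT) of the macrophage list was 0.86. It was 1.28 without Xbp1 KO replicate 3 and 0.09 without Xbp1 KO replicate 2. Of 10 tested markers of plasmacytoid dendritic cells 1 was raised (Cox6a2) and 1 lowered (Bst2), and their summed unscaled CPM was 104 to 114 in WT and 72.1 to 126 in Xbp1 KO. Of 4 tested erythroid markers 1 was lower, and 0 were without WT replicate 1, Xbp1 KO replicate 1 or Xbp1 KO replicate 3. WT replicate 3 stood apart from the other WT libraries: mean log2(CPM + 1) over 23 immediate early genes, which respond within minutes to handling or stimulation, was 8.92 there and 8.26 and 8.12 in WT replicates 1 and 2. In bulk samples such as these, fewer cells of a type and less RNA per cell cannot be told apart. All later CPM values are scaled by TMM over the tested genes of the 9 cDC1 libraries.

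**Figure D1:**
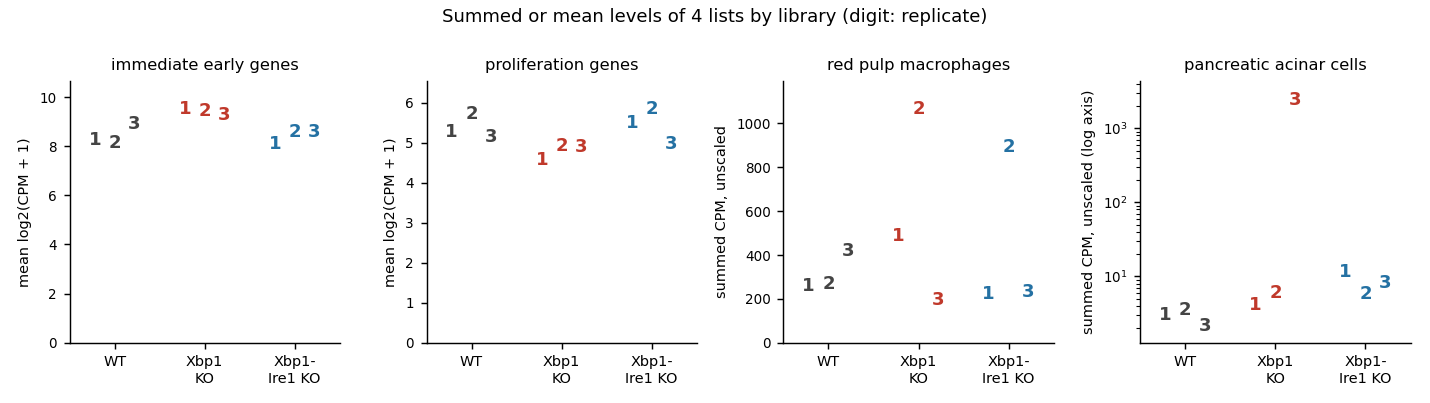
Mean or summed level of 4 gene lists in each of the 9 cDC1 libraries, with the digit giving the replicate and the vertical axis in mean log2(CPM + 1) for immediate early and proliferation genes and in summed unscaled CPM for macrophage and acinar markers (log axis for the latter). Immediate early means were 9.28 to 9.51 in Xbp1 KO and at most 8.92 in WT, macrophage sums were spread within the groups, and the acinar sum of Xbp1 KO replicate 3 was 2409.6 CPM.

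Xbp1 itself (chromosome 11, 5520659 to 5525893, GRCm38) was read at a CPM of 233, 145 and 143 in WT, at 95.1, 89.7 and 113 in Xbp1 KO and at 353, 337 and 301 in Xbp1-Ire1 KO. Every Xbp1 KO library lay below every WT library (log2 fold change −0.81 with SE 0.18, adjusted p = 0.0129, edgeR quasi-likelihood test with p adjusted by Benjamini-Hochberg over every tested gene, n = 3 and 3). The call was lost without WT replicate 1 (−0.53, adjusted p = 0.0573), Xbp1 KO replicate 1 (−0.77, adjusted p = 0.0669) or Xbp1 KO replicate 2 (−0.73, adjusted p = 0.0785), and when the WT-named library was the sole control (−0.51, adjusted p = 0.138). Counts cover the whole gene, so transcripts missing only some exons are still counted, and the level checks the label only in part. The cleavage sites of IRE1 in Xbp1 show what its RNase recognises: a loop of 7 bases, CNGCAGN, closed by a stem. A search of the GENCODE M21 transcript (Xbp1 on the plus strand) found both loops in the coding sequence, at chr11:5524276-5524282 with 6 closing base pairs and at chr11:5524302-5524308 with 7, printed here with the loop in capitals:
Xbp1, 5′ loop: gtctgctgagtCCGCAGCactcagactatg
Xbp1, 3′ loop: tatgtgcacctCTGCAGCaggtgcaggccc

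In all, 1270 of 11353 tested genes (11.2%) were called at an adjusted p under 0.05, 486 higher (4.28%) and 784 lower (6.91%) in Xbp1 KO, with a median log2 fold change of −0.02 over all genes. Xbp1 KO and WT libraries did not overlap for 3419 genes (30.1%). The count of calls depended on single libraries: it was 471 or 620 without WT replicate 1 or 2, 2926 without WT replicate 3, 550 or 498 without Xbp1 KO replicate 1 or 2, and 897 without Xbp1 KO replicate 3. It was 345 against the WT-named library alone and 828 in a fit of the 6 libraries alone. Of 271 genes eligible to be named, 175 were called and 95 of these kept the call under each of 15 distinct alternatives, and the called genes given below with values are among the 95 unless a lost call is stated. The comparison of Xbp1-Ire1 KO with Xbp1 KO, which shares the Xbp1 KO libraries with the main comparison, called 1437 genes (12.7%), 810 higher and 627 lower in Xbp1-Ire1 KO. That count was 658 or 648 without Xbp1 KO replicate 1 or 2, and 709 or 778 without Xbp1-Ire1 KO replicate 1 or 3. Without WT replicate 3, up to 2 members were called in directions for which a list count of 0 is given below. In the text, a difference ± an error is a log2 fold change with its standard error (SE), and a CPM ± an error is the mean and SD of 3 libraries. Lists of genes are described by counts and medians, to be read against these background shares.

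The 15 largest falls, taken from called genes whose groups were separate and whose mean log2 CPM reached 3, were those of Fcrla, Tmem238, Ccl22, Itgb2, Bloc1s1, Rnf130, Pbxip1, Tapbp, Fam134c, Kcnk6, Hgsnat, Cd81, Abca2, Alg1 and Lamp1. All 15 kept the call under each alternative. Fcrla, an Fc receptor-like protein held inside the cell, was read at a CPM of 68.5, 42.0 and 24.7 in WT and at 0.815, 2.28 and 2.56 in Xbp1 KO (log2 fold change −4.58 with SE 0.41, adjusted p = 1.02e-05). Rnf130, a membrane RING finger protein, was read at a CPM of 84.0, 68.4 and 72.9 in WT and 7.34, 9.02 and 5.94 in Xbp1 KO (log2 fold change −3.34 with SE 0.18, adjusted p = 3.16e-07). In both genes the groups were far apart, and the lowest WT library held several times the highest Xbp1 KO value. Kcnk6, a potassium channel, fell from 54.1 ± 7.76 to 7.73 ± 2.03 CPM (SD, n = 3 each), and Abca2, a lipid transporter of endolysosomes, fell from 19.3 ± 6.20 to 3.098 ± 1.61 CPM. Of the 15 largest rises, 7 kept the call under each alternative, namely Cox6a2, Asns, Slc6a9, Chac1, Fam84b, Inpp4b and Fosb. Cox6a2, a muscle-type subunit of cytochrome c oxidase that is also expressed in plasmacytoid dendritic cells, was read at a CPM of 0.332, 0.302 and 0.628 in WT and at 5.22, 5.69 and 10.3 in Xbp1 KO (log2 fold change 4.04 with SE 0.42, adjusted p = 3.75e-05). For Cox6a2, Xbp1-Ire1 KO values were 112, 70.5 and 66.3. Among other markers of plasmacytoid cells, the tetherin gene Bst2 was read at 48.3, 43.7 and 38.5 CPM in WT and 21.7, 22.3 and 26.1 in Xbp1 KO (−0.90 ± 0.15, adjusted p = 0.00224), with −0.71 and adjusted p = 0.0849 against the WT-named library. The chemokine receptor gene Ccr9 did not pass (−0.33 ± 0.26, adjusted p = 0.433). Inpp4b, a phosphoinositide phosphatase, was read at 1.08, 2.95 and 2.75 CPM in WT and 8.81, 15.6 and 10.6 in Xbp1 KO (log2 fold change 2.354 with SE 0.36, adjusted p = 0.00103). The largest fitted difference of all was that of the acinar elastase gene Cela1, with Xbp1 KO values of 2.45, 5.08 and 567 CPM against 0.83, 1.29 and 0.785 CPM in WT. The Cela1 call (adjusted p = 0.0157) was lost without Xbp1 KO replicate 3 (adjusted p = 0.119), the library with the highest acinar sum, and without WT replicate 1 (0.0819) or WT replicate 2 (0.0543). It was also lost with the replicate block (0.0505), against the WT-named library (0.241), with limma-voom (0.474) and with limma on the deposited log2 values (0.0651).

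Reported substrates of the IRE1 RNase had, as a list, the lowest median of the 45 lists examined. Of 14 listed, 10 had enough counts to be tested, 8 of these fell and 0 rose, with a median log2 fold change of −2.41, and the count of 8 was the same without each library in turn. Rpn1, Gm2a and Erp44 were put on the list after their fall in these data was known. Without them 5 of 7 fell (median −2.81). Those 7 were also listed with earlier results of these data known. The counts and the rank of the list are therefore not independent of these data. The tested members that did not pass were Galnt10 (−0.26 ± 0.17, adjusted p = 0.345), a glycosyltransferase at 133 ± 16.1 CPM in WT, and Sparc (−0.96 ± 0.58, adjusted p = 0.301), which was read at 4.08 ± 2.58 CPM. Sequences around the cleavage core CTGCAG are shown for 4 members because this hexamer lies in the 3′ loop of Xbp1 (the 5′ loop lacks it) and has been described as a core of the sites that IRE1 cuts. It is common: 9 of the 10 tested members hold it (90.0%), at 0.859 copies per kilobase, and so do 86.3% of 10615 transcripts of tested genes, also at 0.859 copies per kilobase. The share was 88.0% (1.03 per kilobase) for genes called lower and 90.7% (0.692 per kilobase) for genes called higher. The 4 windows were picked from coding sequence, 1 per gene. Bloc1s1 holds 3 such sites, among them a site in the 5′ untranslated region, and Hgsnat holds 2. In Erp44, another member, the only site lies in the 3′ untranslated region. The windows have the core in capitals and 30 bases each from GENCODE M21 transcripts:
Bloc1s1, chr10:128922697-128922702, minus strand: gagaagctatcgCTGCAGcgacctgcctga
Tapbp, chr17:33926235-33926240, plus strand: cagtctgggcacCTGCAGctacctccagtc
Hgsnat, chr8:25955752-25955757, minus strand: atccctggtgtcCTGCAGcggttgggagtg
Gm2a, chr11:55103639-55103644, plus strand: aaggaaaggaccCTGCAGtgatcaaaagcc
The coordinates are those of the core. With the full loop CNGCAGN and at least 4 Watson-Crick pairs closing it, 3.72% of the transcripts of tested genes held a match (395 of 10615). So did 6.88% of those called lower (52 of 756), 3.75% of those called higher (17 of 453) and 0 of the 10 tested members of the list. Such a match is a description of letters and not a site of cleavage.

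Itgb2, the beta chain shared by the leukocyte integrins, was read at a CPM of 542, 389 and 317 in WT and at 33.4, 37.1 and 32.1 in Xbp1 KO (log2 fold change −3.60 with SE 0.19, adjusted p = 3.16e-07). In Xbp1-Ire1 KO it was read at 829, 938 and 885 CPM, above every WT library. Tapbp, the tapasin of the MHC class I loading complex, was read at a CPM of 1742, 1401 and 968 in WT and 166, 173 and 117 in Xbp1 KO (log2 fold change −3.17 with SE 0.21, adjusted p = 1.1e-06). For Tapbp, Xbp1-Ire1 KO values were 952, 1064 and 993. Its Xbp1 KO values lay below all 6 other libraries, while WT and Xbp1-Ire1 KO overlapped. Bloc1s1, a subunit of complexes that sort cargo to lysosomes and the classical decay substrate, was read at a CPM of 31.8, 25.3 and 31.9 in WT and 1.96, 2.98 and 2.48 in Xbp1 KO (log2 fold change −3.58 with SE 0.25, adjusted p = 1.35e-06). For Bloc1s1, Xbp1-Ire1 KO values were 52.1, 32.0 and 45.2. Hgsnat, a lysosomal acetyltransferase for heparan sulfate, was read at 35.4, 32.1 and 26.5 CPM in WT and 4.48, 4.64 and 4.29 in Xbp1 KO (log2 fold change −2.81 with SE 0.18, adjusted p = 1.1e-06). For Hgsnat, Xbp1-Ire1 KO values were 45.8, 44.6 and 39.1. Both genes were lowest in all 3 Xbp1 KO libraries and highest in Xbp1-Ire1 KO. Against WT, however, Xbp1-Ire1 KO did not pass for Bloc1s1 (0.54 ± 0.20, adjusted p = 0.13, edgeR) or Hgsnat (0.46 ± 0.16, adjusted p = 0.0964). Gm2a, the lysosomal cofactor of ganglioside breakdown, was by far the most abundant member, at a CPM of 7879.6, 6513 and 5464 in WT and 1419, 1580.2 and 1380.1 in Xbp1 KO (log2 fold change −2.18 with SE 0.14, adjusted p = 1.1e-06). For Gm2a, Xbp1-Ire1 KO values were 3795, 3819 and 4216, which lay between the other groups without overlap. Rpn1, a ribophorin of the oligosaccharyltransferase, fell from 354 ± 69.0 to 73.5 ± 7.07 CPM, Erp44, a thiol-based retention factor, from 173 ± 21.3 to 29.6 ± 6.22 CPM, and Ergic3, a cargo receptor, from 61.0 ± 9.997 to 17.3 ± 0.897 CPM (SD, n = 3 each). Between Xbp1-Ire1 KO and Xbp1 KO, Itgb2 differed by 4.69 ± 0.19, adjusted p = 1.16e-08, Bloc1s1 by 4.12 ± 0.25, adjusted p = 3.01e-07 and Gm2a by 1.43 ± 0.14, adjusted p = 1.48e-05. Of the list, 8 of the 10 tested members passed that test.

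**Figure D2:**
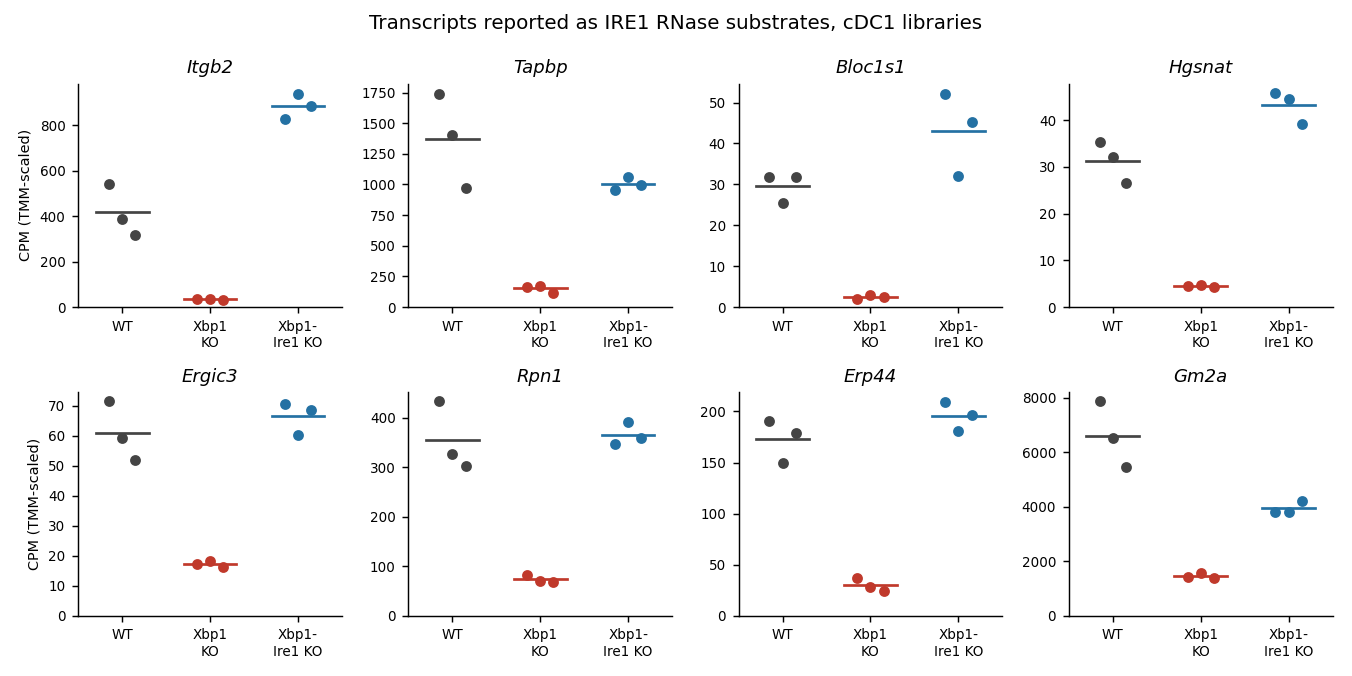
TMM-scaled CPM (linear axis from 0) of 8 reported IRE1 RNase substrates in each cDC1 library, with points for the 3 replicates of WT, Xbp1 KO and Xbp1-Ire1 KO and lines for group means. In all 8 panels the Xbp1 KO points lie below every WT and every Xbp1-Ire1 KO point; for Itgb2 the group means were 416, 34.2 and 884 CPM.

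Among sensors and transducers of the unfolded protein response, 5 of 20 tested members fell and 1 rose (median −0.03). Eif2ak3, encoding PERK, was read at a CPM of 32.1, 27.4 and 43.9 in WT and 9.78, 12.7 and 11.6 in Xbp1 KO (log2 fold change −1.60 with SE 0.21, adjusted p = 0.00032). Atf6b, a relative of ATF6, was read at 181, 171 and 139 CPM in WT and 64.3, 54.2 and 67.1 in Xbp1 KO (log2 fold change −1.40 with SE 0.15, adjusted p = 5.39e-05). For both genes the groups were separate. Atf4, the translationally controlled effector of the integrated stress response, was the member that rose, from 28.1, 33.0 and 70.7 CPM in WT to 117, 96.5 and 133 CPM in the knockout (log2 fold change 1.40 with SE 0.27, adjusted p = 0.00497). Its WT replicate 3 was higher than the others, and against that library alone the difference was 0.73 (adjusted p = 0.0678). Ppp1r15b, which recruits the phosphatase of eIF2alpha, fell from 214 ± 8.92 to 123 ± 22.3 CPM (−0.80 ± 0.14), with −0.71 and adjusted p = 0.0621 against the WT-named library. Ern1 did not pass, at a CPM of 22.4, 29.0 and 23.3 in WT and 31.8, 33.1 and 26.7 in Xbp1 KO (log2 fold change 0.29 with SE 0.17, adjusted p = 0.286). The lowered count was 3 without WT replicate 1 or Xbp1 KO replicate 1 and 2 against the WT-named library, and the raised count was 5 without WT replicate 3 and 2 without Xbp1 KO replicate 3.

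Among regulators of the integrated stress response 16 were tested, of which 11 rose and 0 fell (median 1.09). Chac1, a glutathione-degrading enzyme induced by ATF4, was read at a CPM of 9.05, 5.44 and 15.8 in WT and 46.9, 52.4 and 67.3 in Xbp1 KO (log2 fold change 2.46 with SE 0.29, adjusted p = 0.000103). Cebpb, a bZIP transcription factor that pairs with ATF4, was read at 16.3, 16.3 and 20.03 CPM in WT and 37.3, 46.3 and 36.2 in Xbp1 KO (log2 fold change 1.19 with SE 0.15, adjusted p = 0.000202). For Cebpb, Xbp1-Ire1 KO values were 125, 118 and 116. Jdp2, another bZIP factor, rose from 36.8 ± 12.4 to 98.2 ± 4.70 CPM, and Eif4ebp1, an inhibitor of cap-dependent translation, from 37.8 ± 8.59 to 75.7 ± 8.72 CPM. Ddit3, encoding CHOP, was read at a CPM of 3.32, 2.12 and 5.26 in WT and 10.9, 12.4 and 21.2 in Xbp1 KO (log2 fold change 2.06 with SE 0.33, adjusted p = 0.00157), with 1.51 and adjusted p = 0.0704 against the WT-named library. Atf3, which also belongs to the immediate early genes, was read at 38.3, 30.9 and 159.5 CPM in WT and 339, 348 and 281 in Xbp1 KO (log2 fold change 2.08 with SE 0.45, adjusted p = 0.0112). WT replicate 3 was the high WT library, and without WT replicate 1 the adjusted p was 0.0567. In none of these 6 genes did the groups overlap. Against the WT-named library 6 members were raised.

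Enzymes that make serine, asparagine, proline and folate-bound carbon units were raised in 9 of 20 tested members and lowered in 0 (median 0.58). Asns, asparagine synthetase, was read at a CPM of 9.05, 13.7 and 8.56 in WT and 70.6, 77.5 and 106 in Xbp1 KO (log2 fold change 3.02 with SE 0.24, adjusted p = 4.31e-06), and at 243, 159 and 150.0 in Xbp1-Ire1 KO. Phgdh, the first enzyme of serine synthesis, was read at 44.8, 43.0 and 35.1 CPM in WT and 115, 107 and 175 in Xbp1 KO (log2 fold change 1.69 with SE 0.18, adjusted p = 5.44e-05). For Phgdh, Xbp1-Ire1 KO values were 442, 369.5 and 371. For both genes the 3 genotypes did not overlap, with WT lowest and Xbp1-Ire1 KO highest; Xbp1-Ire1 KO exceeded Xbp1 KO by 1.117 ± 0.22, adjusted p = 0.00553 for Asns and by 1.57 ± 0.18, adjusted p = 8.07e-05 for Phgdh. Mthfd2, a mitochondrial folate enzyme, rose from 107 ± 6.85 to 221 ± 23.2 CPM, Gpt2, a mitochondrial alanine transaminase, from 15.3 ± 5.27 to 44.0 ± 5.14 CPM, and Aldh18a1, which starts proline synthesis, from 105 ± 17.9 to 204 ± 21.5 CPM (SD, n = 3 each). Shmt2, the mitochondrial serine hydroxymethyltransferase, did not pass (0.63 ± 0.20, adjusted p = 0.056).

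Amino acid transporters moved in both directions: 5 of 19 rose and 2 fell (median 0.46, and 0.24 without WT replicate 3). Slc38a2, a sodium-coupled importer of neutral amino acids, was read at a CPM of 229.8, 208 and 203 in WT and 415, 441 and 401 in Xbp1 KO (log2 fold change 0.97 with SE 0.11, adjusted p = 7.96e-05). Slc6a9, a glycine transporter, was read at 3.16, 5.29 and 1.26 CPM in WT and 18.1, 18.7 and 17.3 in Xbp1 KO (log2 fold change 2.47 with SE 0.33, adjusted p = 0.000354). Slc1a5, the glutamine carrier ASCT2, went the other way, from 116, 129 and 107 CPM in WT to 22.3, 19.6 and 32.8 CPM (log2 fold change −2.23 with SE 0.18, adjusted p = 3.39e-06), and was read at 314, 316 and 278 in Xbp1-Ire1 KO. Its Xbp1 KO values lay below and its Xbp1-Ire1 KO values above every WT library (Xbp1-Ire1 KO minus Xbp1 KO 3.60 ± 0.18, adjusted p = 1.16e-07). The raised count was 2 without WT replicate 1 or Xbp1 KO replicate 1 and 3 without Xbp1 KO replicate 2, and the lowered count was 1 without WT replicate 1 or 2 or any Xbp1 KO replicate.

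Cytosolic aminoacyl-tRNA synthetases, which load tRNAs with amino acids, rose in 11 of 23 tested members and fell in 0 (median 0.23, and 0.47 against the WT-named library), and the raised count was 10 or 11 with each library left out. Cars, the cysteine enzyme, was read at a CPM of 37.5, 45.1 and 52.6 in WT and 125, 128 and 130.5 in Xbp1 KO (log2 fold change 1.504 with SE 0.14, adjusted p = 1.02e-05). Lars, the leucine enzyme, rose from 103 ± 16.9 to 215 ± 15.2 CPM and Sars, the serine enzyme, from 105 ± 7.73 to 217 ± 24.5 CPM. Yars, the tyrosine enzyme, rose from 70.3 ± 8.97 to 153 ± 19.3 CPM, Iars, the isoleucine enzyme, from 149 ± 26.8 to 307 ± 20.8 CPM, and Mars, the methionine enzyme, from 96.4 ± 3.92 to 162 ± 21.8 CPM. The groups did not overlap for any of these 6. The most abundant members that did not pass were Vars, the valine enzyme (0.06 ± 0.17), and Dars, the aspartate enzyme (0.15 ± 0.15). Of 17 mitochondrial synthetases, 0 rose and 0 fell (median −0.03). Among 16 mitochondrial chaperones and proteases 1 rose and 1 fell, but 0 fell when any cDC1 library of the 6 other than WT replicate 3 was left out, and 2 rose without WT replicate 3. The member that rose was Hspa9, the mitochondrial HSP70, read at a CPM of 138, 154 and 149.6 in WT and 225, 238 and 259 in Xbp1 KO (log2 fold change 0.71 with SE 0.12, adjusted p = 0.00275).

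**Figure D3:**
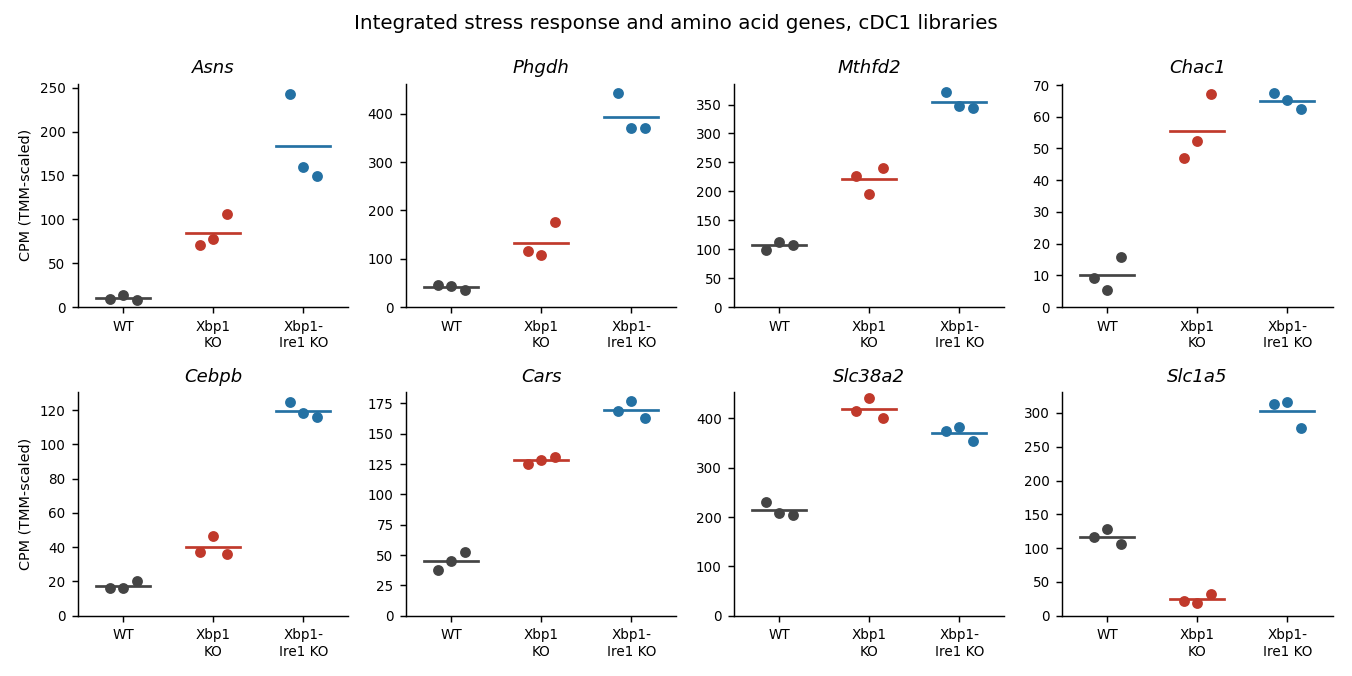
TMM-scaled CPM (linear axis from 0) of 8 genes of the integrated stress response and amino acid supply in each cDC1 library, with points for the 3 replicates per genotype and lines for group means. In 7 panels the Xbp1 KO points lie above every WT point, and for Slc1a5 they lie below; Asns had means of 10.4, 84.8 and 184 CPM in WT, Xbp1 KO and Xbp1-Ire1 KO.

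Promoters were searched because more members rose than fell in each of these 4 lists (stress regulators, amino acid enzymes, transporters and cytosolic synthetases). The composite element bound by C/EBP and ATF factors, TGATGNAA on either strand, occurs within 250 bases before to 50 after the start of 2.79% of 8742 tested genes with a RefSeq promoter (244 genes). It occurs in 17 of the 57 listed genes with a promoter (29.8%), and in 12 of the 27 raised ones (44.4%): Aars, Asns, Atf3, Chac1, Gars, Got1, Herpud1, Iars, Jdp2, Tars, Trib3 and Yars. The lists were chosen with earlier results known, and a match shows letters only. The promoters of Asns and Chac1 are printed because their genes had the largest rises of these lists with such a match, in RefSeq GRCm38.p6 with the element in capitals, 5′ to 3′ along the gene:
Asns, chr6:7693160-7693459, minus strand: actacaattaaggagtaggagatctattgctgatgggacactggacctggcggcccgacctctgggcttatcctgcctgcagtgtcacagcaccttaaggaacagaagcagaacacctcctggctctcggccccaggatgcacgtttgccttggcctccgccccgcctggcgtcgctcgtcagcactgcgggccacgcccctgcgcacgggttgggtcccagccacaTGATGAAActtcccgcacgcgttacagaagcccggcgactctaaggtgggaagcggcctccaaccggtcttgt
Chac1, chr2:119350992-119351291, plus strand: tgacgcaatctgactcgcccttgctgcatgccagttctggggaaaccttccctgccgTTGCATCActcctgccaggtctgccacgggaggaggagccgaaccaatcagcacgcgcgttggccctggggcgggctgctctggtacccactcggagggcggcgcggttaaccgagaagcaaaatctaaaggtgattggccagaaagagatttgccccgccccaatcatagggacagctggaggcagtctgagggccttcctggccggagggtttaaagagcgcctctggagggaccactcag
In Asns the element begins 23 bases before the start, and in Chac1 it begins 193 bases before it on the opposite strand.

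Among genes of the secretory pathway more were called lower than higher, with both directions among the chaperones. Of 21 ER chaperones and cochaperones, 9 fell and 3 rose (median −0.35). Hspa5, the ER HSP70 BiP, was read at a CPM of 1439.8, 1618 and 2703 in WT and 5302, 4960.4 and 5433 in Xbp1 KO (log2 fold change 1.45 with SE 0.19, adjusted p = 0.00032). Hsp90b1, the ER HSP90 known as gp96, was read at 892, 934 and 1271 CPM in WT and 1874, 1975 and 2217 in Xbp1 KO (log2 fold change 0.97 with SE 0.15, adjusted p = 0.000876). Both were higher in every Xbp1 KO than in every WT library, and WT replicate 3 was the highest WT library. Dnajb11, an HSP40 partner of BiP, was read at a CPM of 156, 142 and 156 in WT and 58.1, 68.1 and 62.2 in Xbp1 KO (log2 fold change −1.27 with SE 0.12, adjusted p = 1.32e-05). For Dnajb11, Xbp1-Ire1 KO values were 300.1, 282 and 272. Cnpy3, the gp96 cofactor for Toll-like receptor folding, was read at 122, 116 and 106 CPM in WT and 35.0, 36.2 and 28.1 in Xbp1 KO (log2 fold change −1.79 with SE 0.14, adjusted p = 2.59e-06). For Cnpy3, Xbp1-Ire1 KO values were 135, 151 and 135. For both, Xbp1 KO was below the other genotypes without overlap. Dnajc10, an HSP40 with disulfide reductase activity, fell from 132 ± 10.9 to 44.6 ± 6.00 CPM, and Creld2, an ER stress-induced thiol protein, from 142 ± 13.1 to 65.1 ± 2.52 CPM. Dnajc3, another HSP40 of the ER listed with the sensors and transducers, did not pass (−0.27 ± 0.12, adjusted p = 0.175). The most abundant members that did not pass were the lectin chaperones Calr (−0.02 ± 0.11) and Canx (0.04 ± 0.15). Against the WT-named library 5 members fell.

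The ER stress element ERSE (CCAAT and CCACG separated by 9 bases, either strand) was found in 0.183% of the 8742 tested genes with a promoter and in 9 of 129 genes of the ER lists (6.98%). The XBP1-type core TGACGTGG, whose other strand shares CCACG with the ERSE, was found in 1.08% and in 9 of 129 (6.98%). Among the 46 ER list genes called lower, 2 held the ERSE (Creld2 and Derl3) and 4 the core (Arf1, Sec24d, Txndc11 and Txndc5). The promoter of Hspa5 is printed because the gene rose while 9 members of its list fell, with the ERSE in capitals 65 bases before the start (RefSeq GRCm38.p6):
Hspa5, chr2:34771840-34772139, plus strand: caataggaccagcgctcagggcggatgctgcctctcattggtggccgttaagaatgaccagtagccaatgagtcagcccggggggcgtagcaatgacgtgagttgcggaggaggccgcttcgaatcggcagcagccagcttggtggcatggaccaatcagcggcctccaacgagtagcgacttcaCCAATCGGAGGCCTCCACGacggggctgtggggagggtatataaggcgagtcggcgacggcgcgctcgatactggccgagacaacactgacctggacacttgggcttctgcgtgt

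Disulfide isomerases and ER oxidases fell in 7 of 19 tested members and rose in 0 (median −0.29). P4hb, the abundant protein disulfide isomerase, was read at a CPM of 901, 788 and 776 in WT and 322, 296 and 336 in Xbp1 KO (log2 fold change −1.37 with SE 0.11, adjusted p = 4.54e-06). Pdia3, its relative in the class I loading complex, did not pass (−0.13 ± 0.11, adjusted p = 0.467). Txndc5 fell from 193 ± 28.6 to 63.1 ± 16.4 CPM, Tmx3 from 149.6 ± 17.5 to 52.4 ± 9.39 CPM and Txndc11 from 66.7 ± 3.74 to 27.8 ± 5.58 CPM; all 3 are ER thioredoxin-family proteins. The first and the second were higher again in Xbp1-Ire1 KO than in Xbp1 KO (1.21 ± 0.18, adjusted p = 0.000713, and 1.69 ± 0.16, adjusted p = 1.48e-05). Txndc11 did not pass that test (0.11 ± 0.17, adjusted p = 0.724).

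Of 28 members of the signal recognition particle, translocon and signal peptidase, through which proteins enter the ER, 10 fell and 0 rose (median −0.37). Sec61a1, the channel subunit, was read at a CPM of 578, 510.4 and 389 in WT and 238, 228 and 237 in Xbp1 KO (log2 fold change −1.07 with SE 0.14, adjusted p = 0.000346). For Sec61a1, Xbp1-Ire1 KO values were 253, 297 and 257. Its levels in the knockout genotypes were both below every WT library, and Xbp1-Ire1 KO did not pass against Xbp1 KO (0.20 ± 0.14, adjusted p = 0.39). Spcs3, a signal peptidase subunit, fell from 609.7 ± 70.9 to 275 ± 17.1 CPM, Spcs2 from 270.1 ± 24.1 to 153 ± 14.3 CPM and Sec61b from 131 ± 22.8 to 56.3 ± 12.6 CPM. Of this list 4 members passed between Xbp1-Ire1 KO and Xbp1 KO. Against the WT-named library 4 members fell.

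In N-glycosylation 9 of 32 members fell and 0 rose (median −0.43, and −0.18 against the WT-named library). Alg1, the mannosyltransferase of the lipid-linked precursor, was read at a CPM of 24.1, 22.99 and 21.7 in WT and 3.424, 4.64 and 3.14 in Xbp1 KO (log2 fold change −2.62 with SE 0.22, adjusted p = 4.89e-06). For Alg1, Xbp1-Ire1 KO values were 22.5, 27.5 and 29.6. Stt3a, the catalytic subunit of the translocon-bound oligosaccharyltransferase, was read at 506, 451 and 346 CPM in WT and 233, 216 and 209 in Xbp1 KO (log2 fold change −0.99 with SE 0.14, adjusted p = 0.000628). For Stt3a, Xbp1-Ire1 KO values were 243, 284 and 263. The Xbp1-Ire1 KO values of Alg1 overlapped WT, while those of Stt3a stayed below every WT library. Ddost fell from 575 ± 122 to 244 ± 11.5 CPM and Rpn2 from 353 ± 90.7 to 145 ± 10.4 CPM, both subunits of the same enzyme. Lowered members numbered 14 without WT replicate 3 and 5 against the WT-named library.

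ER to Golgi coats and cargo receptors fell in 18 of 41 members and rose in 1 (median −0.37). Surf4, a receptor for soluble cargo, was read at a CPM of 533, 471 and 376 in WT and 208, 198 and 247 in Xbp1 KO (log2 fold change −1.08 with SE 0.14, adjusted p = 0.000316). Sec24d, a cargo-selecting COPII subunit, fell from 62.5 ± 14.4 to 25.01 ± 3.17 CPM, and Tmed2, a p24 cargo receptor, from 994 ± 58.6 to 532 ± 59.99 CPM. The lowered count was 8 or 9 without WT replicate 1 or 2, 7 without Xbp1 KO replicate 1 or 2, and 4 against the WT-named library. When any of the 6 libraries other than WT replicate 3 was left out, 0 rose. In ER-associated degradation 7 of 26 fell and 1 rose (median −0.24, and −0.11 against the WT-named library). Edem1, a mannosidase-like lectin of this pathway, was read at 336, 337 and 240.2 CPM in WT and 136, 139 and 129 in Xbp1 KO (log2 fold change −1.18 with SE 0.14, adjusted p = 0.000136). Vimp, a membrane adaptor of the retrotranslocation complex, fell from 179.9 ± 16.01 to 85.1 ± 3.90 CPM, and Man1b1, an ER mannosidase, from 85.9 ± 7.40 to 47.9 ± 0.893 CPM. Of this list 3 members fell against the WT-named library, and 0 rose without WT replicate 2. Among 15 ER-phagy receptors and shaping proteins 3 fell and 0 rose, namely Fam134c, Fam134a and Tex264. Fam134c was read at a CPM of 41.2, 22.004 and 11.4 in WT and 3.424, 4.03 and 1.57 in Xbp1 KO (log2 fold change −3.05 with SE 0.42, adjusted p = 0.000443). Fam134a fell from 67.2 ± 15.4 to 16.8 ± 1.40 CPM and Tex264 from 17.7 ± 2.99 to 4.75 ± 0.511 CPM. Without WT replicate 3, 5 members fell.

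**Figure D4:**
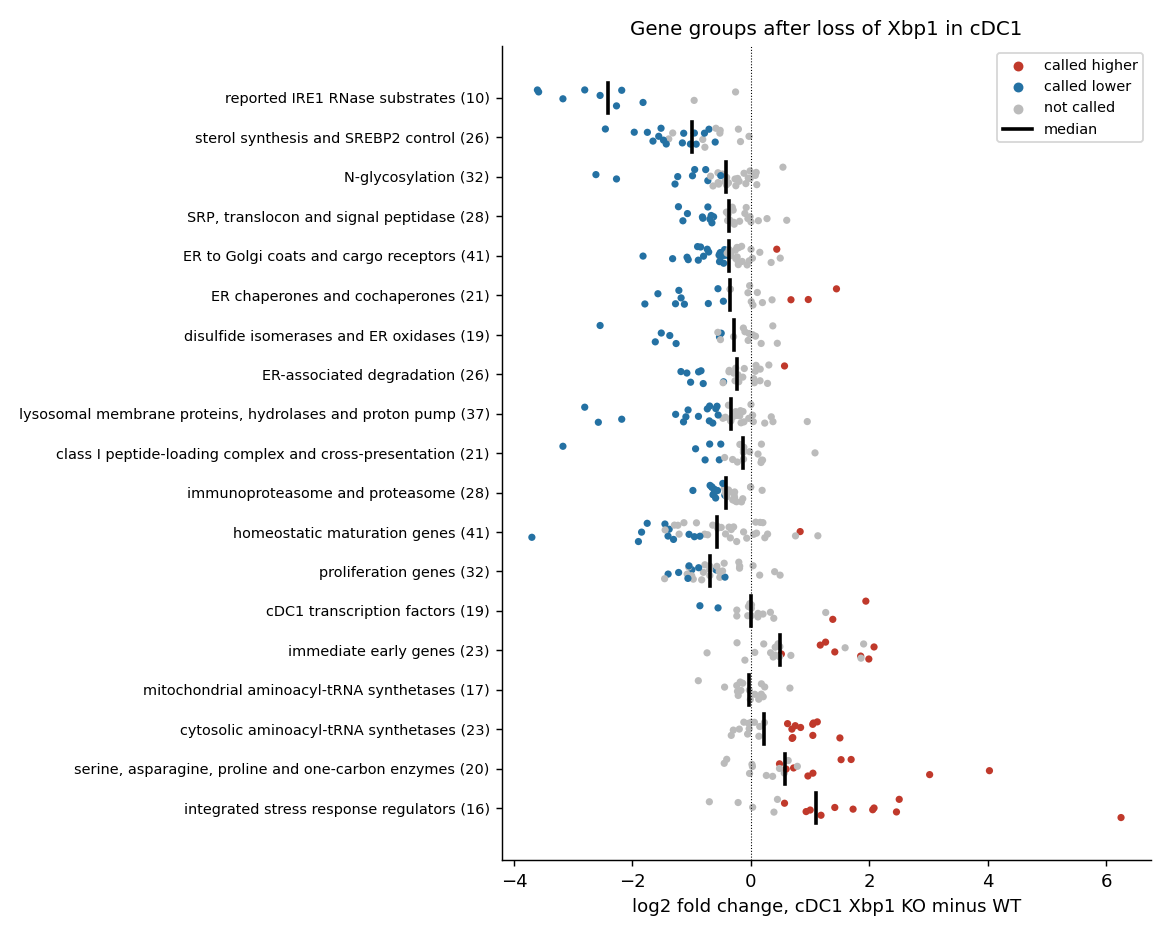
Log2 fold change of every tested member of 19 gene lists in cDC1, Xbp1 KO minus WT, 1 point per gene and 1 row per list with the number of tested members in brackets; red and blue mark genes called higher and lower, grey those not called, and black bars list medians. The medians run from −2.41 for reported IRE1 RNase substrates to 1.09 for integrated stress response regulators, against −0.02 over all tested genes.

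Sterol synthesis and its control fell in 16 of 26 members with 0 raised (median −0.99). Srebf2, the transcription factor that drives this pathway, was read at 388, 369.8 and 221 CPM in WT and 86.0, 83.9 and 79.9 in Xbp1 KO (log2 fold change −1.97 with SE 0.19, adjusted p = 2.28e-05). For Srebf2, Xbp1-Ire1 KO values were 289, 388 and 303. Xbp1 KO was lowest without overlap. Along the pathway Idi1, the isopentenyl diphosphate isomerase, fell from 87.3 ± 23.1 to 27.7 ± 6.17 CPM and Fdps, farnesyl diphosphate synthase, from 100.5 ± 26.0 to 37.3 ± 3.61 CPM. Sqle, squalene epoxidase, fell from 58.6 ± 6.52 to 20.5 ± 0.0702 CPM, and Cyp51, lanosterol demethylase, from 73.5 ± 6.33 to 24.998 ± 3.33 CPM. Members that did not pass included Ebp (−0.52 ± 0.19, adjusted p = 0.0927) and Insig2 (−0.03 ± 0.15, adjusted p = 0.92). The sterol regulatory element TCACNCCAC, searched on both strands, was found in 1.33% of the 8742 genes and in 1 of 19 listed genes with a promoter, Hmgcs1. Srebf1, which drives fatty acid synthesis and responds to LXR, fell from 77.2 ± 11.7 to 35.8 ± 2.37 CPM (−1.11 ± 0.17). Of 14 fatty acid genes 2 fell and 0 rose, and Fasn, fatty acid synthase, did not pass (−0.38 ± 0.18, adjusted p = 0.194). Without WT replicate 1, WT replicate 2 or any Xbp1 KO replicate 0 fatty acid genes fell, and 4 fell without WT replicate 3. Against the WT-named library 10 sterol genes fell.

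Lysosomal genes fell in 15 of 37 members with 0 raised (median −0.34, and −0.11 against the WT-named library). Lamp1, the major lysosomal membrane glycoprotein, was read at a CPM of 356, 215 and 325 in WT and 58.9, 58.9 and 32.7 in Xbp1 KO (log2 fold change −2.58 with SE 0.23, adjusted p = 9.95e-06), and at 247, 222 and 224 in Xbp1-Ire1 KO. Grn, the progranulin gene, fell from 764 ± 214 to 317 ± 11.4 CPM, and Gaa, the acid alpha-glucosidase, from 93.4 ± 18.1 to 44.8 ± 3.33 CPM. Tpp1, a lysosomal tripeptidyl peptidase from the list of antigen-processing proteases, was read at 41.4, 37.2 and 39.5 CPM in WT and 7.26, 13.3 and 8.997 in Xbp1 KO (log2 fold change −1.999 with SE 0.21, adjusted p = 4.44e-05). Lipa, the acid lipase, did not pass (0.00 ± 0.13, adjusted p = 0.995), nor did Asah1, acid ceramidase (0.37 ± 0.12, adjusted p = 0.0534). The lowered count was 9 without WT replicate 1 or 2 or Xbp1 KO replicate 1 or 2, and 6 against the WT-named library. Of 15 subunits of BLOC-1 and related sorting complexes only Bloc1s1 was called, and 3 were lower and 2 higher without WT replicate 3. Of the 15 cathepsins and antigen-processing proteases, the list that holds Tpp1, 3 fell and 2 rose (median −0.20). With each library left out, 1 to 5 of these proteases fell and 0 to 3 rose.

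In MHC class I, 3 of 9 heavy and light chains fell and 0 rose (median −0.38, and −0.17 against the WT-named library). B2m, the light chain, was read at a CPM of 3763, 2742 and 2873 in WT and 1745, 1613 and 1777 in Xbp1 KO (log2 fold change −0.87 with SE 0.15, adjusted p = 0.00287). H2-T23, the Qa-1 heavy chain, was read at 498, 445 and 366 CPM in WT and 186, 163 and 175 in Xbp1 KO (log2 fold change −1.32 with SE 0.13, adjusted p = 2.4e-05). The classical heavy chain H2-K1 was also called lower (−0.55 ± 0.15, adjusted p = 0.0349), but not without WT replicate 1 (−0.37, adjusted p = 0.171), WT replicate 2 (−0.54, adjusted p = 0.0958) or any Xbp1 KO replicate (adjusted p = 0.0661 to 0.145), nor against the WT-named library (−0.17, adjusted p = 0.609). H2-D1 did not pass (−0.38 ± 0.12, adjusted p = 0.0516). Both genes are near-identical to others of the locus, so the split of reads among them is uncertain. In the loading complex and cross-presentation list 6 of 21 fell with Tapbp at the front, and 0 rose. The lowered count was 2 without WT replicate 1, Xbp1 KO replicate 1 or Xbp1 KO replicate 2, 3 without WT replicate 2 or Xbp1 KO replicate 3, and 1 against the WT-named library. Wdfy4, which is required for cross-presentation in cDC1, did not pass (0.17 ± 0.16, adjusted p = 0.515). In MHC class II, 3 of 11 members fell and 1 rose (median −0.26, and 0.09 against the WT-named library). The lowered count was 1 without WT replicate 1 or 2 or Xbp1 KO replicate 1 or 2, and 8 without WT replicate 3. The raised count was 0 without WT replicate 1 or 2 or any Xbp1 KO replicate, and 2 without WT replicate 3. H2-DMb1, a chain of the peptide editor DM, was read at a CPM of 616, 592 and 562 in WT and 334, 318 and 306 in Xbp1 KO (log2 fold change −0.89 with SE 0.11, adjusted p = 0.000118). For H2-DMb1, Xbp1-Ire1 KO values were 668, 662 and 673. The chain H2-Aa did not pass (−0.32 ± 0.15, adjusted p = 0.189).

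At the cell surface, tetraspanins, which organise membrane microdomains, fell in 4 of 17 with 0 raised (median −0.36, and −0.16 against the WT-named library). Cd81 was read at a CPM of 1041, 866 and 574 in WT and 120.0, 156 and 113 in Xbp1 KO (log2 fold change −2.67 with SE 0.21, adjusted p = 2.8e-06). For Cd81, Xbp1-Ire1 KO values were 934, 753 and 761. Tspan3 was read at 326, 174 and 271 CPM in WT and 74.8, 58.2 and 44.8 in Xbp1 KO (log2 fold change −2.12 with SE 0.23, adjusted p = 5.44e-05). For Tspan3, Xbp1-Ire1 KO values were 82.2, 69.3 and 91.4. The Xbp1-Ire1 KO values of Cd81 overlapped WT and those of Tspan3 lay below every WT library (Xbp1-Ire1 KO minus Xbp1 KO 0.45 ± 0.22, adjusted p = 0.204). Tspan17 was read at a CPM of 5.56, 4.91 and 7.15 in WT, 0.245, 0.175 and 0 in Xbp1 KO and 14.4, 14.5 and 14.6 in Xbp1-Ire1 KO. Without WT replicate 3, 9 tetraspanins fell. Among 18 tested integrin chains and ligands 3 fell and 1 rose (median −0.09). Beside Itgb2, the alpha chain Itgal (−0.46 ± 0.13, adjusted p = 0.0387) and the ligand Icam2 (−1.36 ± 0.40, adjusted p = 0.0462) were called lower, and both calls were lost without WT replicate 1 or 2 or Xbp1 KO replicate 1 or 2 and against the WT-named library. The alpha chain Itgad was called higher, at a CPM of 5.65, 3.63 and 8.88 in WT and 16.4, 46.1 and 10.1 in Xbp1 KO (1.996 ± 0.60, adjusted p = 0.0482). That call was lost without WT replicate 1 or 2 or Xbp1 KO replicate 1 or 2, with adjusted p from 0.0786 to 0.263, against the WT-named library, with the replicate block, and with DESeq2 and both limma fits. Its highest value lay in Xbp1 KO replicate 2, which also had the highest sum of red pulp macrophage markers. The part of these markers in the Itgad difference was not tested. Itgad was called higher in cDC2 as well (2.76 ± 0.37, adjusted p = 0.00521, edgeR). Its span (chr7:128154376-128223816, plus strand) contains Cox6a2 (chr7:128205435-128206387, minus strand), which rose in both cell types. Whether the genes share reads was not tested. Itgax (CD11c) did not pass (−0.32 ± 0.15, adjusted p = 0.186), nor did the beta chain Itgb1 (−0.24 ± 0.13, adjusted p = 0.247).

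Of 19 transcription factors that specify or act in cDC1, 2 rose and 2 fell (median 0.01). However, 0 rose without WT replicate 1 or 2 or Xbp1 KO replicate 1 or 2, 1 rose without Xbp1 KO replicate 3, and 1 fell without WT replicate 2 or Xbp1 KO replicate 1. Irf8 was read at a CPM of 3897, 4194 and 3817 in WT and 4413, 4023 and 4499.5 in Xbp1 KO (log2 fold change 0.12 with SE 0.11, adjusted p = 0.5). Id2, an inhibitor of E proteins needed for the lineage, was read at 1762, 1528 and 1629.5 CPM in WT and 1671, 1494 and 1792 in Xbp1 KO (log2 fold change 0.01 with SE 0.15, adjusted p = 0.972). The groups overlapped for both. Among 19 receptors and enzymes typical of cDC1, 5 fell and 4 rose, with 8 raised without WT replicate 3. Naaa, a lysosomal amidase enriched in cDC1, was read at a CPM of 2855, 2459 and 1989 in WT and 823, 785 and 690.1 in Xbp1 KO (log2 fold change −1.67 with SE 0.14, adjusted p = 4.74e-06). For Naaa, Xbp1-Ire1 KO values were 2405, 2421 and 2325. Notch4 was read at 115, 103 and 97.1 CPM in WT and 21.5, 18.3 and 18.6 in Xbp1 KO (log2 fold change −2.43 with SE 0.19, adjusted p = 3.26e-06). For Notch4, Xbp1-Ire1 KO values were 85.9, 151 and 120.5. Both were low in all 3 Xbp1 KO libraries, and the other genotypes overlapped. Xcr1 did not pass (0.33 ± 0.11, adjusted p = 0.0699), and neither did the scavenger receptor Cd36 (−0.03 ± 0.13, adjusted p = 0.897). Of 17 tested members of the Toll-like receptor list, 4 rose and 2 fell (median 0.115). With each library left out, 3 to 5 rose and 1 or 2 fell. Tlr3, the sensor of double-stranded RNA, was read at a CPM of 493, 559.8 and 548 in WT and 925, 909 and 780.4 in Xbp1 KO (log2 fold change 0.71 with SE 0.12, adjusted p = 0.00191). For Tlr3, Xbp1-Ire1 KO values were 492, 557 and 541. Tlr11, the profilin sensor on chromosome 14, was read at 500.0, 468 and 407 CPM in WT and 688, 738 and 823 in Xbp1 KO (log2 fold change 0.71 with SE 0.12, adjusted p = 0.00227). For Tlr11, Xbp1-Ire1 KO values were 434, 399 and 407. Both were higher in Xbp1 KO than in every library of the other genotypes, while Unc93b1, which escorts endosomal Toll-like receptors out of the ER, did not pass (0.10 ± 0.13, adjusted p = 0.638).

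Genes that rise when dendritic cells mature without infection fell in 11 of 41 members and rose in 1 (median −0.57, and −0.89 against the WT-named library). Ccl22, a chemokine of mature cells, was read at a CPM of 125, 72.1 and 122 in WT and 14.3, 4.64 and 5.53 in Xbp1 KO (log2 fold change −3.70 with SE 0.37, adjusted p = 2.4e-05). For Ccl22, Xbp1-Ire1 KO values were 20.7, 20.8 and 29.8. Il4ra, the interleukin-4 receptor chain, was read at 154, 107 and 145 CPM in WT and 65.6, 47.2 and 43.0 in Xbp1 KO (log2 fold change −1.38 with SE 0.18, adjusted p = 0.000312). For Il4ra, Xbp1-Ire1 KO values were 56.9, 66.8 and 68.3. In both genes all 6 knockout libraries of either genotype lay below the 3 WT libraries. Relb, the NF-kappaB subunit of the noncanonical pathway, fell from 165 ± 27.1 to 90.6 ± 6.71 CPM (−0.86 ± 0.15), and Bcl3, a nuclear cofactor of NF-kappaB, from 40.6 ± 11.4 to 17.3 ± 0.841 CPM (−1.23 ± 0.20). Fscn1, the actin-bundling protein of mature dendritic cells, fell from 341 ± 119.9 to 101 ± 36.0 CPM (−1.75 ± 0.36), with adjusted p = 0.0552 without Xbp1 KO replicate 2. Cd83 and Marcks, the most abundant members not called, differed by 1.13 ± 0.42, adjusted p = 0.0993 and by 0.05 ± 0.11, adjusted p = 0.812. The lowered count was 4 without WT replicate 1 and 3 without Xbp1 KO replicate 2. The raised count was 4 without WT replicate 3 and 0 without WT replicate 1 or 2 or Xbp1 KO replicate 1 or 2. In a separate list of 19 NF-kappaB subunits and feedback genes, 3 fell and 1 rose (median −0.06). There 7 rose without WT replicate 3, and 0 without WT replicate 1 or 2 or Xbp1 KO replicate 1 or 2.

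Immediate early genes were raised in 7 of 23 members with 0 lowered (median 0.49). Fosb, a subunit of AP-1, was read at a CPM of 63.7, 62.9 and 126 in WT and 334, 353 and 318 in Xbp1 KO (log2 fold change 1.99 with SE 0.26, adjusted p = 0.00032). For Fosb, Xbp1-Ire1 KO values were 104, 194 and 153. Egr2, a zinc finger factor, was read at 453, 417 and 594 CPM in WT and 1262, 1106 and 931 in Xbp1 KO (log2 fold change 1.17 with SE 0.20, adjusted p = 0.00283). For Egr2, Xbp1-Ire1 KO values were 295.1, 539.8 and 386. Against the WT-named library the Xbp1 KO difference was 0.90 (adjusted p = 0.127). Xbp1 KO was highest in both, and WT replicate 3 was the highest WT library. Fos itself did not pass (0.46 ± 0.17, adjusted p = 0.0967). The raised count was 3 without WT replicate 1, 4 without WT replicate 2, Xbp1 KO replicate 1 or Xbp1 KO replicate 2, 15 without WT replicate 3, and 2 against the WT-named library. The part of immediate early genes in the other differences between the genotypes was not tested.

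Proliferation genes fell in 8 of 32 members with 0 raised. Their median was −0.69, with −0.41 without WT replicate 2 and −0.32 against the WT-named library. Ccnb2, a mitotic cyclin, was read at a CPM of 58.5, 59.96 and 60.2 in WT and 30.7, 21.99 and 23.9 in Xbp1 KO (log2 fold change −1.22 with SE 0.17, adjusted p = 0.000444). For Ccnb2, Xbp1-Ire1 KO values were 40.2, 55.9 and 44.2. The lowered count was 4 without WT replicate 1, WT replicate 2 or Xbp1 KO replicate 2, 3 and 5 without Xbp1 KO replicates 1 and 3, and 22 without WT replicate 3. Proteasome subunits fell in 12 of 28 with 0 raised (median −0.42), but 1 fell without WT replicate 1, Xbp1 KO replicate 1 or Xbp1 KO replicate 2, 7 without WT replicate 2, and 0 against the WT-named library. Psmb5, a catalytic subunit, fell from 193 ± 47.0 to 98.1 ± 12.2 CPM (−0.98 ± 0.18), with −0.53 and adjusted p = 0.192 against the WT-named library. Interferon-stimulated genes were called in 2 of 28, both lower, with 1 lower without WT replicate 1 or Xbp1 KO replicate 1 or 2.

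Whether Xbp1 loss acted differently in cDC1 and cDC2 was tested as an interaction over all 19 libraries. It was called for 264 of 12185 genes (2.17%), 40 with the higher and 224 with the lower log2 fold change in cDC1. Without cDC1 WT replicate 3 it was called for 418 genes. The sample names carry numbers, other than the replicate numbers of the titles, that 6 pairs of cDC1 and cDC2 libraries of a genotype share. The labels do not say what these numbers mark, and the libraries were fitted as independent. In cDC2 alone, Xbp1 KO against WT called 12 of 11646 genes, 8 higher and 4 lower (edgeR; 1127 at an unadjusted p under 0.05). In the interaction test, the 10 named genes with the smallest adjusted p were Itgb2, Rnf130, Hgsnat, Erp44, Pbxip1, Leprot, Bloc1s1, BC004004, Rpn1 and Tapbp. Each had the lower log2 fold change in cDC1. Itgb2 was read in cDC2, scaled among the cDC2 libraries, at 958, 1020.0, 969.6 and 927 CPM in WT and 735, 762 and 695 CPM in Xbp1 KO. In the fit of cDC2 alone this was a log2 fold change of −0.41 ± 0.10 that did not pass (adjusted p = 0.314), and its effect differed between the cell types by −3.20 ± 0.19, adjusted p = 2.92e-09. Leprot, a membrane protein encoded at the leptin receptor locus, was read at 164, 164, 147 and 166 CPM in WT and 157, 171 and 157 in Xbp1 KO in cDC2, where the difference was 0.01 ± 0.10. In cDC1 it was read at 234, 220.5 and 172 CPM in WT and 47.3, 51.1 and 35.1 in Xbp1 KO (difference of effects −2.25 ± 0.18, adjusted p = 2e-07). Tapbp was read in cDC2 at 1073, 1293, 843 and 839.5 CPM in WT and 856, 830.4 and 792 in Xbp1 KO. In cDC2 the WT and Xbp1 KO ranges of Leprot and Tapbp overlapped and those of Itgb2 did not, whereas in cDC1 the groups of all 3 were far apart.

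Among the lists, the interaction was called in 8 of the 10 tested IRE1 substrates, whose median log2 fold change was −0.11 in cDC2. Without Rpn1, Gm2a and Erp44, listed after their fall in cDC1 was known, it was called in 5 of 7 (cDC2 median −0.17). Those 7 were also listed with earlier results of these data known. The interaction was also called in 9 of 26 sterol genes (cDC2 median −0.20) and in 8 of 37 lysosomal genes (−0.01). The count was 5 of 23 for cytosolic synthetases (cDC2 median 0.04), 3 of 20 for serine and folate enzymes (−0.08) and 1 of 16 for integrated stress response regulators (0.39). Phgdh, at 12.2, 16.3, 13.2 and 11.3 CPM in cDC2 WT and 12.4, 12.4 and 12.9 CPM in cDC2 Xbp1 KO, differed between the cell types by 1.77 ± 0.26, adjusted p = 0.000203. Chac1 did not pass (1.14 ± 0.64, adjusted p = 0.493). For immediate early genes 0 of 23 passed, with a cDC2 median of 0.54. The cDC2 WT libraries stood apart by name in these genes: mean log2(CPM + 1) was 8.30 and 8.43 in the fl-fl libraries (WT replicates 1 and 2), 9.55 and 9.51 in the WT-named ones (replicates 3 and 4), and 9.55 to 10.02 in cDC2 Xbp1 KO. Cox6a2 rose in cDC2 as well (4.90 ± 0.41, adjusted p = 4.85e-05), and its effect did not pass as different between the cell types (−0.87 ± 0.63, adjusted p = 0.627).

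**Figure D5:**
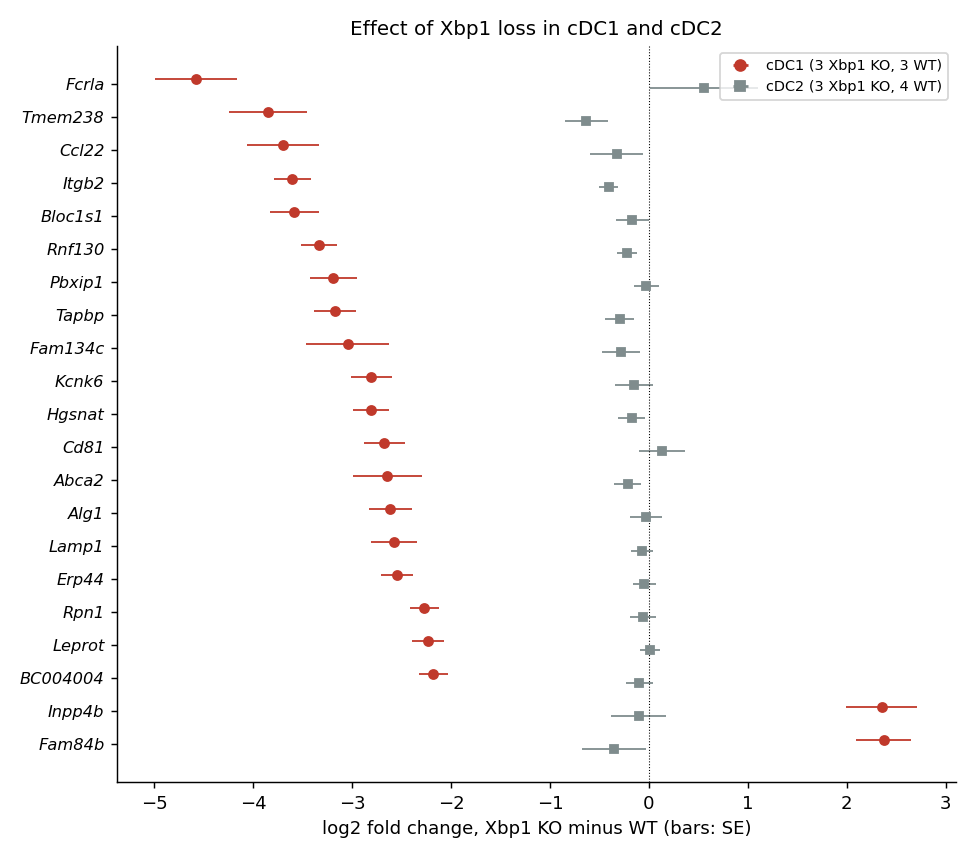
Log2 fold change of Xbp1 KO minus WT in cDC1 (red circles) and in cDC2 (grey squares) with standard errors, for 21 genes with a called difference between the cell types, drawn from the largest changes in cDC1 and the smallest adjusted p of the interaction. For Itgb2 the values were −3.60 ± 0.19 in cDC1 and −0.41 ± 0.10 in cDC2; 19 genes fell and 2 rose in cDC1, and cDC2 values lie between −0.63 and 0.56.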

How the data were processed

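Bulk RNA-seq was analysed from the deposited table of raw read counts per gene for cDC1 (9 libraries) and that for cDC2 (10 libraries). Per the submitters' processing notes, FastQC 0.11.4, Trimmomatic 0.35, TopHat2 2.1.0, SAMtools 0.1.19 and limma 3.42.2 were used with build mm10. For the counter, annotation and strand setting the entry is: not given in the sources used here. Thus overlapping and antisense genes may share reads. The authors' deposited log2 expression values served only for the limma alternative. Genes passing edgeR's filterByExpr (minimum count 10, minimum total 15) were scaled by TMM and tested with edgeR 4.0.16 quasi-likelihood fits (glmQLFTest) in R 4.3.3, with all 9 cDC1 libraries sharing the estimate of dispersion and Benjamini-Hochberg adjustment over all tested genes. Genes with an adjusted p under 0.05 were called. The difference between cDC1 and cDC2 was an interaction term over all 19 libraries. Alternatives were DESeq2 1.42.0, DESeq2 size factors, limma 3.58.1 with voom or on the deposited log2 values, other count filters, the compared groups alone, a replicate block, WT libraries of either name, and each library left out (leaving out WT replicate 3 and keeping the fl-fl libraries are the same fit in cDC1). The per-sample columns not used numbered 0.

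Named genes were the 15 largest changes in each direction (mean log2 CPM of at least 3, separated groups) and the 10 smallest interaction p-values. For each list, the called members with the smallest adjusted p and the most abundant members not called were named as well. The comparison, lists and rules were chosen with earlier results of these data known. Same-numbered WT and Xbp1 KO libraries did not deviate together (r = −0.01, −0.01 and −0.15), so the numbers were not taken to pair them. For the 6 pairs of cDC1 and cDC2 libraries that share a number in their names, r differed by genotype. It was −0.22 to 0.05 for the knockout pairs, and 0.13 and 0.26 for the WT pairs, which are fl-fl libraries. What the WT pairs share was not tested. Promoters came from RefSeq (GRCm38.p6) and transcripts from GENCODE M21 (GRCm38); Sqle, Fdps and Cars had no promoter entry. Some members the naming rule covers are not reported here.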

Additional observations from a re-analysis of the deposited data

Results flagged for a closer look

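The effect of Xbp1 loss (Xbp1 KO minus WT) differed between cDC1 and cDC2 for 264 genes in edgeR's interaction test. Among the named genes the difference was negative, with the lower log2 fold change in cDC1, for Fcrla (−5.1588), Bloc1s1 (−3.4220), Ccl22 (−3.3774), Tmem238 (−3.2258), Itgb2 (−3.2047), Pbxip1 (−3.1721), Rnf130 (−3.1204), Tapbp (−2.8893), Cd81 (−2.8194), Fam134c (−2.7729), Kcnk6 (−2.6653), Hgsnat (−2.6387), Alg1 (−2.5967), Lamp1 (−2.5133), Erp44 (−2.5061), Abca2 (−2.4365), Leprot (−2.2485), Rpn1 (−2.2206) and BC004004 (−2.0889). It was positive for Fam84b (2.7169) and Inpp4b (2.4495). Most of these genes were named for a large change in cDC1, so the sizes describe genes chosen with that change in view.

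Acinar transcripts of the pancreas, of which 2 had enough counts to be tested and 1 (Cela1) was called higher, reached a sum of 2409.6 CPM before scaling in replicate 3 of Xbp1 KO, far above the sums in WT. Their part in other values of that library was not tested; without it, 897 genes were called.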

How the results depend on the processing

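The 1270 calls between Xbp1 KO and WT became 828 in a fit of the compared groups alone, 2926 against the fl-fl WT libraries (1246 shared) and 345 against the WT-named library (284 shared), and ranged from 471 to 2926 when each library was left out; DESeq2 gave 1808. The 1437 calls between Xbp1-Ire1 KO and Xbp1 KO ranged from 648 to 1297 with each library left out. The 264 interaction calls became 432 with DESeq2 and 173 against WT-named libraries, and ranged from 182 to 418 with each library left out. The cause was not tested. Lars2, a mitochondrial synthetase that was not called (−0.21), turned to 1.28 (adjusted p = 0.00309) against the WT-named library. The remaining alternatives for scaling and filters left each of the 3 counts within 1.5 times its value. Where 1 WT library remained, its variance was taken from the other groups.

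Replicate numbers are shared between groups, but same-numbered WT and Xbp1 KO libraries did not deviate together; with a replicate block 1211 genes were called between Xbp1 KO and WT, 1376 between Xbp1-Ire1 KO and Xbp1 KO, and 216 in the interaction. A replicate block by the number in the sample names, shared between cDC1 and cDC2 and chosen after seeing the data, gave 310 interaction calls (243 shared). At these depths, genes with few counts, among them 4 of the 14 listed IRE1 substrates, were not tested.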
